A study of Mus musculus with 8 samples.

Results

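The 10 genes described here make or import amino acids and are known targets of ATF4, the transcription factor of the amino acid and stress response. They were chosen by symbol (Asns, Aldh18a1, Phgdh, Psat1, Psph, Shmt2, Mthfd2, Slc7a11, Slc7a5 and Slc3a2), by a rule that holds no measured value, and all 10 were found among the 23356 genes of the table. RNA of mouse sciatic nerve at 30 days of age was sequenced from poly A selected TruSeq libraries, with 2 libraries for each of 4 genotypes on an F1 background of C57BL/6 and FVB/N. The genotypes were HA-NRG1 type III/+:Q215X/+ (the double in what follows), HA-NRG1 type III/+, Q215X/+ and WT. The Q215X mutation is present on 1 allele in the double and in Q215X/+. The HA-NRG1 type III transgene, present in the double and in HA-NRG1 type III/+, encodes the type III form of neuregulin 1, a ligand of ERBB receptors that promotes myelination. The sources used here do not give the promoter that drives the transgene. The study asked whether the transgene changes the course of a congenital hypomyelination model.

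When amino acids run short or unfolded proteins build up, kinases phosphorylate eIF2alpha, most translation slows and Atf4 mRNA is translated more. ATF4 protein then switches on enzymes that make asparagine, serine, glycine and proline, mitochondrial folate enzymes, and transporters that bring cystine and large neutral amino acids into the cell. It binds a composite C/EBP-ATF element. In Schwann cells this response is best known from mutant myelin proteins that are held in the endoplasmic reticulum. Only RNA was measured here, so neither ATF4 protein nor eIF2alpha phosphorylation is known.

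The composite element was searched as TGATGNAA and its reverse complement TTNCATCA in the 250 bases before each RefSeq start (build GRCm38.p6). Of the 10 genes, 9 had a window, and the letters were found in 2 of them, Asns and Slc7a11. Over all genes with a window, 1056 of 27025 (3.91%) held a match. The matches are shown because Asns was the gene of the set that rose with the transgene, and Slc7a11 the least abundant gene. Phgdh is shown beside them because its level ran opposite to that of Asns. Its window held no match, and neither did that of any other searched gene of the set besides Asns and Slc7a11. Whether a match goes with the direction of a difference was not tested. Capitals mark the matched letters. The Asns match lies inside an exon of the GENCODE vM21 annotation, and the Slc7a11 matches lie outside its exons. The Phgdh stretch was taken from outside annotated exons. A match is a description of the sequence and not a measured site.
Asns, chr6:7693214-7693243, minus strand, bases -34 to -5 from the start: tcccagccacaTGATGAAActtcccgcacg
Slc7a11, chr3:50443652-50443681, minus strand, bases -68 to -39 from the start: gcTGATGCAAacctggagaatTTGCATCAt
Phgdh, chr3:98339991-98340070, minus strand, bases -101 to -22 from the start: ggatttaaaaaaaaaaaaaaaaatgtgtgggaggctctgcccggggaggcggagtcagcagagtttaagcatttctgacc

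Expression was deposited as FPKM (fragments divided by transcript length and by the library's mapped fragments), and total FPKM ran from 443733 to 530900 per library. Each genotype had a column ending in 0 and another ending in 1, named set 0 and set 1. Whether libraries of a genotype are separate animals is not stated in the labels. The p-values then describe library to library spread alone, and that spread may be technical. Nrg1 was at 0.498 and 0.358 FPKM in the double, 0.393 and 0.312 in HA-NRG1 type III/+, 0.326 and 0.190 in Q215X/+, and 0.204 and 0.164 in WT (set 0 first here and in each pair that follows). Its transgenic and other libraries overlapped across the sets. Within set 0 and within set 1, both transgenic libraries were higher than both others. Sex-linked genes read both Q215X/+ libraries and set 0 of HA-NRG1 type III/+ as male, 3 in all, and the other 5 as female. Q215X/+ and WT therefore differ in sex as well as genotype, and so do the double and Q215X/+.

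All but Slc7a11 reached a mean of 1 FPKM, the level required for a test. Mean FPKM over the 8 libraries put 3 genes together at the top: Slc3a2 at 82.9, Psat1 at 74.9 and Phgdh at 72.5. Their ranges over the libraries overlapped. Slc7a5 followed at 39.3, then Psph at 13.7 and Shmt2 at 13.0, then Aldh18a1 at 8.84, Mthfd2 at 4.88 and Asns at 4.71, and each of these 5 overlapped with the next in order except Shmt2 with Aldh18a1. Slc7a11 was last at 0.640, below every library of the others. The heavy chain shared by several transporters and the enzymes of the first and middle steps of serine synthesis were thus the most abundant transcripts of the set, and the cystine transporter was the least abundant.

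**Figure D1:**
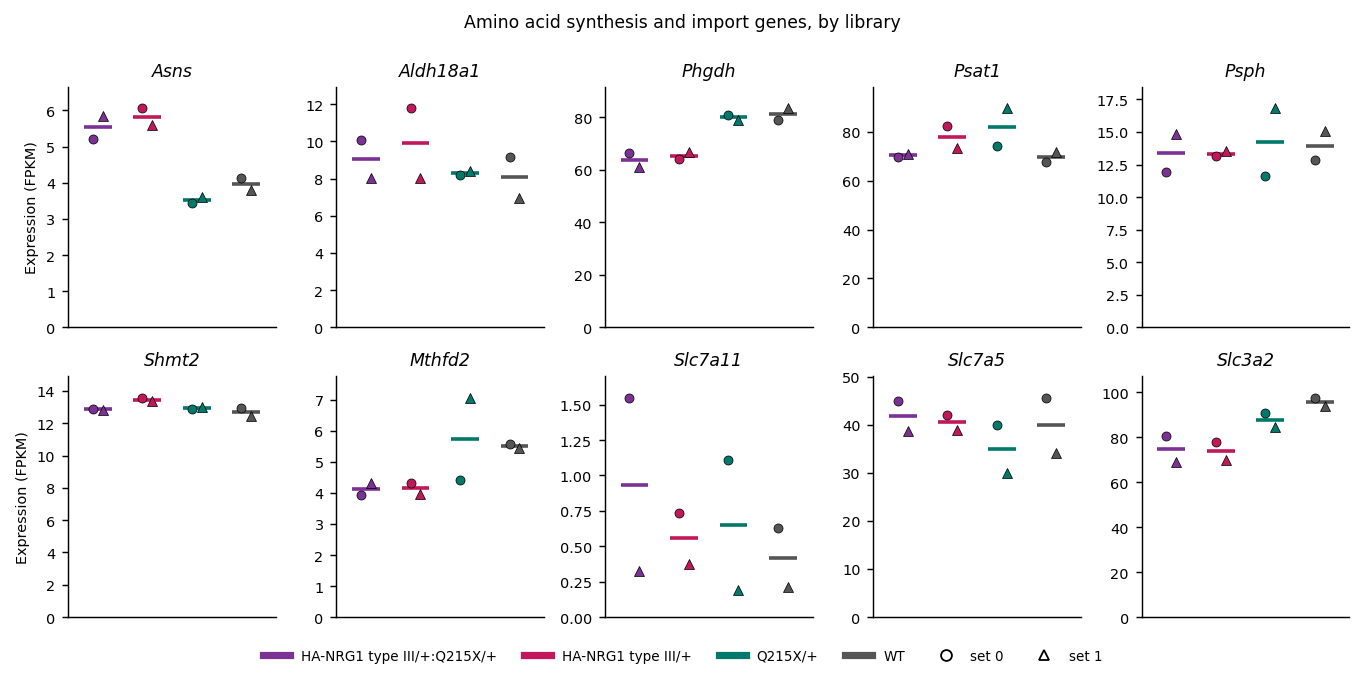
FPKM of the 10 genes in each library, with genotypes from left to right as in the legend, circles for set 0, triangles for set 1 and bars for the mean of 2 libraries. The 4 libraries with the transgene lay above the other 4 for Asns (5.21 to 6.05 against 3.43 to 4.12 FPKM) and below them for Phgdh, Mthfd2 and Slc3a2, while Slc7a11 was higher in set 0 than in set 1 in every genotype.

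With the transgene, the 10 genes did not move together. Asns rose and was 1.52 times as high in libraries with the transgene as in those without, while Phgdh, Mthfd2 and Slc3a2 had lower values in all 4 transgenic libraries. The other 5 tested genes overlapped between the 4 transgenic and the 4 other libraries. Groups that did not overlap were thus seen for 4 of the 9 tested genes (1 higher, 3 lower), against 10.1% of all 12530 tested genes (4.88% higher and 5.2% lower). The 10 genes were chosen with earlier results of these data known, so these shares are a description. Tests used limma on log2(FPKM + 1), with p adjusted by Benjamini-Hochberg over all tested genes and a call at an adjusted p under 0.05. For the transgene over both backgrounds, the mean of its effect in Q215X/+ and in WT, 1 of 9 genes was called, against 0.99% of all tested genes (0.535% higher), and 4 of 9 had an unadjusted p under 0.05, against 11.2%. In bulk nerve, fewer cells of a type and less RNA per cell cannot be told apart.

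Asparagine synthetase (Asns) makes asparagine from aspartate and glutamine. Asns was at 5.21 and 5.84 FPKM in the double, 6.05 and 5.59 in HA-NRG1 type III/+, 3.43 and 3.61 in Q215X/+, and 4.12 and 3.80 in WT. The 4 transgenic libraries were all higher than the other 4, and the lowest of them exceeded the highest WT value by over 1 FPKM. Within each set the HA-NRG1 type III/+ library was 1.47 times its WT counterpart, and the double was 1.52 and 1.62 times Q215X/+. The transgenic libraries averaged 5.68 ± 0.361 FPKM and the others 3.74 ± 0.296 FPKM (SD, n = 4 each). Over both backgrounds the log2 difference was 0.49 (SE 0.06, limma adjusted p = 0.0355). With the set as a block, a fit that compares libraries within set 0 and within set 1, the limma adjusted p was 0.00888.

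On single backgrounds, the log2 difference of Asns was 0.46 (SE 0.09) between HA-NRG1 type III/+ and WT, with a limma adjusted p of 0.227 and 0.0564 with the set block. It was 0.53 between the double and Q215X/+, where the adjusted p was 0.183, and 0.0449 with the block. These 2 comparisons share no library. The call over both backgrounds was lost without any 1 of the 8 libraries (limma adjusted p from 0.0944 to 0.148), with genes of every level kept in the test (0.0587) and with a term for sex (0.123), while the log2 difference stayed between 0.46 and 0.53 in the leave-one-out fits. With the term for sex and the set block together the limma adjusted p was 0.0382, in a fit that called 2.43% of all tested genes. Since the sexes differ within HA-NRG1 type III/+ alone, that term rests on the 2 libraries of this genotype.

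Aldh18a1 encodes the first enzyme of proline synthesis from glutamate. Its values were 10.1 and 8.04 FPKM in the double, 11.8 and 8.02 in HA-NRG1 type III/+, 8.19 and 8.42 in Q215X/+, and 9.19 and 6.97 in WT. The libraries of all 4 genotypes overlapped, with set 0 higher than set 1 in every genotype except Q215X/+. Over both backgrounds the log2 difference was 0.18 (limma adjusted p = 0.805).

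The 3 enzymes of serine synthesis act in the order Phgdh, Psat1 and Psph, and they did not move together. Phgdh, the first and rate-limiting step, was at 66.4 and 61.0 FPKM in the double, 64.0 and 66.7 in HA-NRG1 type III/+, 80.7 and 79.0 in Q215X/+, and 79.0 and 83.3 in WT. Every library with the transgene was lower than every library without it. Within a set, HA-NRG1 type III/+ was 0.809 and 0.801 times WT, and the double was 0.823 and 0.772 times Q215X/+. Over both backgrounds the log2 difference was -0.32 (SE 0.06), with a limma adjusted p of 0.0909 without the set block and 0.0145 with it. A term for sex gave a limma adjusted p of 0.257 without the block and 0.0565 with it. Over the 8 libraries, which share 4 genotypes, the correlation of Phgdh with Asns on the log2 scale was -0.957.

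Psat1, the aminotransferase of the middle step, was at 69.6 and 71.0 FPKM in the double, 82.3 and 73.3 in HA-NRG1 type III/+, 74.2 and 89.5 in Q215X/+, and 67.6 and 71.8 in WT. HA-NRG1 type III/+ and Q215X/+ held the higher values, and the double lay within the range of WT. The log2 difference was 0.15 between HA-NRG1 type III/+ and WT and -0.21 between the double and Q215X/+. The difference between these effects was -0.37 (SE 0.17), and it was not called (limma adjusted p = 1.00). The highest Psat1 value was in the Q215X/+ library of set 1. That library also held the highest sum of 5 skeletal muscle markers, 747 FPKM against 2.45 to 60.0 in the other 7, and its part in the Psat1 value was not tested.

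Psph, the phosphatase of the last step, ran from 12.0 to 14.8 FPKM in the 4 transgenic libraries and from 11.6 to 16.8 in the other 4. Set 1 was higher than set 0 in all 4 genotypes. The genotypes overlapped, and the log2 difference over both backgrounds was -0.06.

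Shmt2 and Mthfd2 are mitochondrial folate enzymes: Shmt2 turns serine into glycine, and Mthfd2 oxidises the resulting folate unit. Shmt2 was the steadiest of the 10 genes, from 12.8 to 13.5 FPKM with the transgene and from 12.5 to 13.0 without it, and its highest library was 1.09 times its lowest. Mthfd2 was at 3.94 and 4.31 FPKM in the double, 4.33 and 3.97 in HA-NRG1 type III/+, 4.41 and 7.05 in Q215X/+, and 5.58 and 5.44 in WT. The transgenic libraries lay below the others, but the Q215X/+ library of set 0 was within 0.1 FPKM of the highest of them. The Q215X/+ value of 7.05 came from the library with the highest sum of skeletal muscle markers. These markers summed to 60.0 and 16.3 FPKM in WT, 2.45 in Q215X/+ of set 0 and 3.46 to 9.04 with the transgene. Their part in the Mthfd2 levels was not tested. Over both backgrounds the Mthfd2 log2 difference was -0.35 (SE 0.13), which was not called (limma adjusted p = 0.360, and 0.131 with the set block). With the block and without the Q215X/+ library of set 0 it was -0.50, with a limma adjusted p of 0.0239. With the block and without the Q215X/+ library of set 1, which held the 7.05, it was -0.21 (limma adjusted p = 0.139).

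Slc7a11 and Slc7a5 are the light chains of the cystine and the large neutral amino acid transporters, and Slc3a2 is the heavy chain that carries either light chain to the cell surface. Slc3a2 was at 80.7 and 68.8 FPKM in the double, 77.9 and 69.9 in HA-NRG1 type III/+, 90.6 and 84.5 in Q215X/+, and 97.3 and 93.7 in WT. All 4 transgenic libraries were lower than the other 4, and in each genotype set 0 was higher than set 1. Within a set, HA-NRG1 type III/+ was 0.800 and 0.746 times WT, and the double was 0.891 and 0.815 times Q215X/+. Over both backgrounds the log2 difference was -0.30 (SE 0.08), with a limma adjusted p of 0.196 without the set block and 0.0137 with it. A term for sex gave a limma adjusted p of 0.505 without the block and 0.0681 with it.

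Slc7a5 did not follow its heavy chain. It was at 44.9 and 38.8 FPKM in the double, 42.0 and 38.9 in HA-NRG1 type III/+, 39.9 and 30.0 in Q215X/+, and 45.5 and 34.2 in WT. The highest value was in a WT library, the lowest in a Q215X/+ library, and the genotypes overlapped. Set 0 was again higher in every genotype, 1.21 times set 1 on average. The log2 difference over both backgrounds was 0.15 (limma adjusted p = 0.846).

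Slc7a11 was low everywhere and differed more by set than by genotype. It was at 1.55 and 0.325 FPKM in the double, 0.737 and 0.376 in HA-NRG1 type III/+, 1.11 and 0.192 in Q215X/+, and 0.629 and 0.211 in WT. The mean of set 0 was 3.64 times that of set 1. Of the 1531 genes with a mean of 0.3 to 1 FPKM, 62 (4.05%) had all libraries of set 0 above all of set 1. For 8 (0.523%) the ratio of the set means was at least as large as that of Slc7a11. Within a set, HA-NRG1 type III/+ was 1.17 and 1.78 times WT, and the double was 1.40 and 1.70 times Q215X/+. With genes of every level kept in the test, its log2 difference over both backgrounds was 0.18 (SE 0.29, limma adjusted p = 0.940). On the log2(FPKM + 1) scale a gene at this level shows less change than its ratio.

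**Figure D2:**
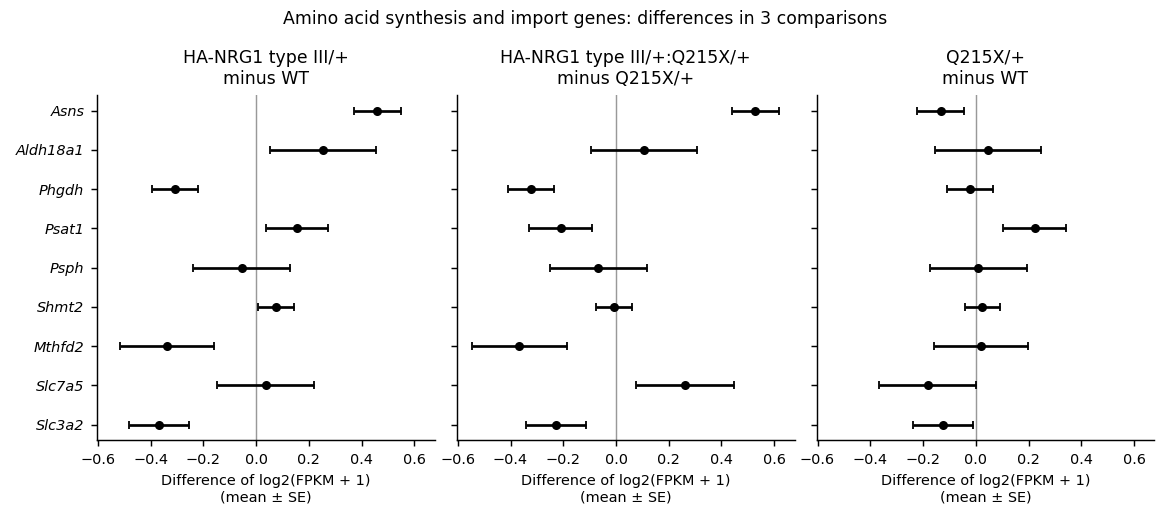
Differences of log2(FPKM + 1) with SE for the 9 tested genes, HA-NRG1 type III/+ minus WT at the left, the double minus Q215X/+ in the middle and Q215X/+ minus WT at the right. Asns lay to the right of 0 (0.46 and 0.53) and Phgdh, Mthfd2 and Slc3a2 to the left of it in both comparisons of the transgene, while Psat1 lay on opposite sides in them (0.15 and -0.21).

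HA-NRG1 type III/+ against WT gave 0 calls among the 9 genes with limma and 3 at an unadjusted p under 0.05 (Asns, Phgdh and Slc3a2). Of all tested genes, 0.0638% were called and 6.9% had an unadjusted p under 0.05. With the set block, Slc3a2 was called (log2 difference -0.37, adjusted p = 0.0447), and 1.06% of all tested genes were called lower. That call was lost without any 1 library (limma adjusted p from 0.0610 to 0.227) and with a term for sex beside the block (0.228). The double against Q215X/+ also gave 0 calls and 2 at an unadjusted p under 0.05 (Asns and Phgdh), against 0.0399% and 6.58% of all genes. There the block gave a call for Asns, with 0.854% of all genes called higher. It was lost without any 1 library (limma adjusted p from 0.0858 to 0.360) and with a term for sex beside the block (0.682). The median log2 difference of the 9 genes was 0.04 for HA-NRG1 type III/+ against WT and -0.07 for the double against Q215X/+, and the median of all tested genes was -0.01 in both.

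The mutation alone moved none of these genes past the test. Q215X/+ against WT gave 0 calls of 9 with limma and 0 at an unadjusted p under 0.05. Of all tested genes, 0.00798%, a single gene, were called and 2.04% had an unadjusted p under 0.05. The set block gave the same counts of calls, 0 of the 9 and 0.00798% of all genes. The median log2 difference was 0.01, against -0.01 for all genes. Psat1 had the largest of the 9 differences, 0.22 (SE 0.12), at 81.8 ± 10.8 FPKM in Q215X/+ and 69.7 ± 2.99 in WT (SD, n = 2 each). Asns was at 3.52 ± 0.132 FPKM in Q215X/+ and 3.96 ± 0.229 in WT (SD, n = 2 each), a log2 difference of -0.13 (SE 0.09). Sex and genotype cannot be told apart in this comparison.

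The double against WT gave 0 calls of 9 and 3 at an unadjusted p under 0.05 with limma, against 0.112% and 7.29% of all genes. Its log2 differences were 0.40 for Asns (limma adjusted p = 0.292), -0.35 for Phgdh (0.346) and -0.35 for Slc3a2 (0.499). With the set block Slc3a2 was called (adjusted p = 0.0450), and 1.24% of all genes were called lower. This call, too, was lost without any 1 library (limma adjusted p from 0.0666 to 0.356) and with a term for sex beside the block (0.0964). The interaction, the transgene effect in Q215X/+ minus that in WT, gave 0 calls and 0 at an unadjusted p under 0.05 with limma, against 0.00798% and 1.11% of all genes. With the set block it gave 0 calls and 1 at an unadjusted p under 0.05 (Psat1), and 0.00798% of all genes were called. For the transgene over both backgrounds, the set block gave calls for 3 of the 9 genes, Asns higher and Phgdh and Slc3a2 lower, against 7.1% of all genes (3.42% higher and 3.69% lower). That count ran from 0 to 4 when each library in turn was left out, with limma adjusted p from 0.0291 to 0.0629 for Asns, 0.0441 to 0.0877 for Phgdh and 0.0386 to 0.0910 for Slc3a2.

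Other genes of the response were read from 5 lists. Atf4 itself was at 73.5 and 73.9 FPKM in the double, 74.7 and 79.4 in HA-NRG1 type III/+, 81.4 and 78.1 in Q215X/+, and 86.8 and 78.4 in WT. The WT library of set 0 was highest, both libraries of the double were lowest, and the 4 transgenic libraries overlapped with the other 4. Over both backgrounds its log2 difference was -0.11 (limma adjusted p = 0.692). Of the 10 genes for ATF4 and eIF2alpha signalling, 0 were called by limma over both backgrounds, and none had an unadjusted p under 0.05. The set block gave a call for Ppp1r15b, a subunit of the eIF2alpha phosphatase, which was lower (log2 difference -0.20, limma adjusted p = 0.0354, and 0.0797 with a term for sex as well). Of all tested genes, 3.69% were called lower with the block.

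Stress targets of ATF4 gave 0 limma calls among 11 tested of 15 listed genes over both backgrounds, and 1 had an unadjusted p under 0.05. Of all tested genes, 0.99% were called and 11.2% had such a p. Ddit3, the stress factor CHOP, was at 18.1 and 22.6 FPKM in the double, 17.4 and 19.5 in HA-NRG1 type III/+, 20.4 and 22.8 in Q215X/+, and 21.2 and 24.9 in WT. Trib3, a pseudokinase induced by ATF4 and CHOP, was low, from 0.894 to 1.52 FPKM with the transgene and from 0.894 to 1.38 without it. With the set block, Vldlr, a lipoprotein receptor (log2 difference -0.28, limma adjusted p = 0.0303), and Ddit3 (-0.20, adjusted p = 0.0459) were called lower. A term for sex beside the block gave 0.0959 and 0.154. With the block alone, 3.69% of all tested genes were called lower. Chac1, Stc2, Gdf15 and Fgf21 were under 1 FPKM in every library and were not tested.

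Cytosolic tRNA synthetases, which load amino acids onto tRNA and of which many are ATF4 targets, were all tested. Of the 20 genes, 15 lay above 0 over both backgrounds, with a median log2 difference of 0.04 against -0.01 for all genes. None was called by limma with or without the set block (1 and 4 had an unadjusted p under 0.05, against 11.2% and 23.3% of all genes). The smallest p was that of Dars, at 35.9 to 38.7 FPKM with the transgene and 29.5 to 36.5 without it, a log2 difference of 0.21 (limma adjusted p = 0.400).

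Other amino acid and folate enzymes gave 0 limma calls among 16 tested of 20 listed genes, and 2 had an unadjusted p under 0.05. Of all tested genes, 0.99% were called and 11.2% had such a p. Mthfd1l, the mitochondrial formate-producing enzyme downstream of Mthfd2, was at 12.7 and 9.33 FPKM in the double, 11.7 and 10.3 in HA-NRG1 type III/+, 7.45 and 6.59 in Q215X/+, and 7.79 and 5.25 in WT. All 4 transgenic libraries were higher than the other 4. The log2 difference was 0.63 (SE 0.14), with a limma adjusted p of 0.130 without the set block, 0.00705 with it, and 0.0407 with the block and a term for sex. Glul, which makes glutamine, ran from 110 to 130 FPKM with the transgene and from 127 to 161 without it. Its log2 difference was -0.28, with a limma adjusted p of 0.439 and 0.0208 with the block. The block called 3.42% of all tested genes higher and 3.69% lower.

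Among 10 tested of 12 other amino acid transporters, 1 was called over both backgrounds, against 0.99% of all tested genes. Slc7a2, a carrier of arginine and lysine, was at 12.5 and 14.7 FPKM in the double, 12.4 and 12.2 in HA-NRG1 type III/+, 31.2 and 31.0 in Q215X/+, and 30.9 and 31.4 in WT. It fell with the transgene by 1.21 on the log2 scale (SE 0.06, limma adjusted p = 0.00297). Slc1a5, a glutamine carrier, ran from 40.9 to 48.5 FPKM with the transgene and from 45.6 to 67.3 without it (log2 difference -0.31, adjusted p = 0.530). For Q215X/+ against WT, limma gave 0 calls in each of the 5 lists, and 1 gene of the lists, Atf5, a relative of ATF4, had an unadjusted p under 0.05 (log2 difference -0.25). Of all tested genes, 2.04% had such a p.

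**Figure D3:**
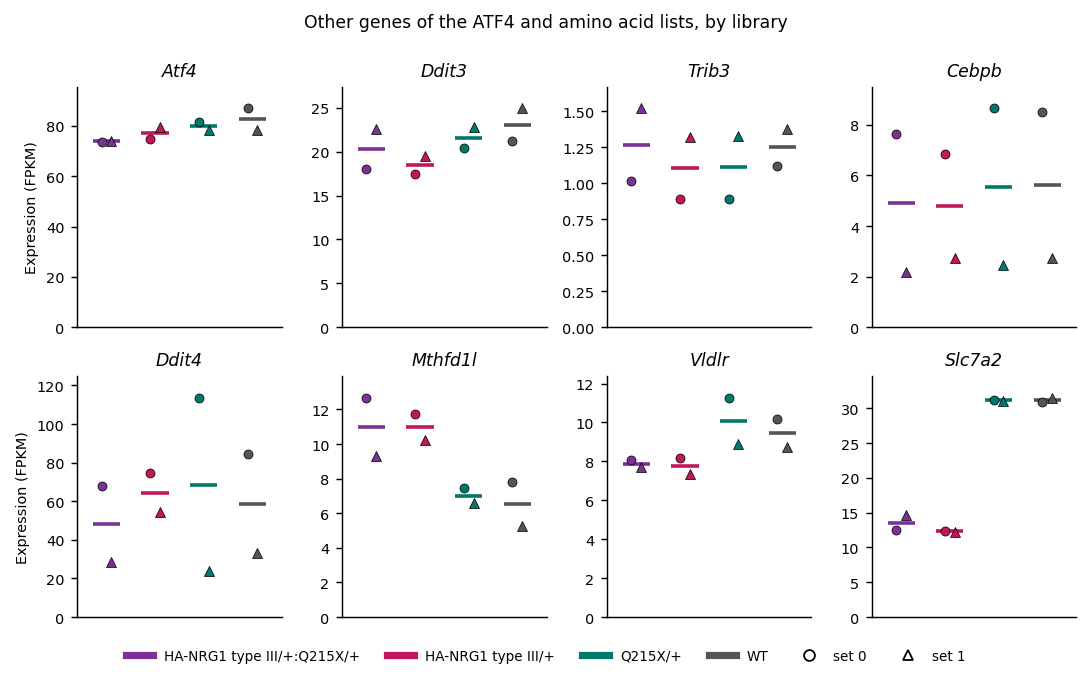
FPKM in each library of 8 other genes of the ATF4 and amino acid lists, with genotypes, sets and means drawn as for the 10 genes. Slc7a2 lay at 12.2 to 14.7 FPKM in the 4 transgenic libraries and at 30.9 to 31.4 in the other 4, Mthfd1l was higher in the transgenic libraries, and Cebpb and Ddit4 were higher in set 0 than in set 1 in every genotype.

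Markers of other cell types were set beside these levels. For the transgene over both backgrounds limma called 0 of 4 fibroblast, 0 of 5 macrophage and 1 of 5 red blood cell markers (Alas2, lower, chosen after its value was seen). Of all tested genes, 0.99% were called. With the set block, 1 fibroblast and 1 macrophage marker were called higher, against 3.42% of all tested genes. The block also called 4 of 5 red blood cell, 1 of 4 endothelial and 2 of 5 myelinating Schwann cell markers lower, against 3.69%. The Schwann cell count includes the markers that are not reported here. A term for sex beside the block left 1 fibroblast, 1 macrophage, 3 red blood cell, 0 endothelial and 0 Schwann cell calls. The summed level of 4 fibroblast markers was 3790 to 4316 FPKM in the transgenic libraries and 3141 to 3556 in the others, with 4 of 4 genes higher on average. The 5 macrophage markers summed to 86.1 to 101 FPKM with the transgene and 66.7 to 86.8 without it, which overlapped, with 5 of 5 higher. The 5 red blood cell markers summed to 49.1 to 178 FPKM with the transgene and 239 to 1279 without it, with 0 of 5 higher. Of the myelinating Schwann cell markers, Mbp, Prx and Sox10 were abundant throughout, summing to 16939 to 19265 FPKM with the transgene and 17791 to 19881 without it, and 0 of 3 were higher. Endothelial markers (112 to 149 FPKM with the transgene and 91.6 to 145 without it) and adipocyte markers (298 to 517 and 195 to 712 FPKM) overlapped as well. So did the 5 skeletal muscle markers (3.46 to 9.04 and 2.45 to 747 FPKM), with 0 of 5 higher. The 5 cell cycle markers summed to 4.95 to 10.7 FPKM with the transgene and 2.97 to 7.04 without it, which overlapped, with 5 of 5 higher. No marker of these lists was at 0 in all libraries. The part of these cell types, or of cell division, in the levels of Asns, Phgdh, Mthfd2 and Slc3a2 was not tested.

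The genes most like Asns over the 8 libraries, by Pearson correlation of log2(FPKM + 1) among 11738 tested genes without short RNA and predicted genes, were Itpr1 (r = 0.990), Tnnc1 (0.976), Gspt2 (0.975) and Ttc12 (0.970). Itpr1, a calcium channel of the endoplasmic reticulum, ran from 9.39 to 9.75 FPKM with the transgene and from 6.82 to 7.83 without it. Tnnc1, a troponin of slow muscle and heart, ran from 3.57 to 4.78 FPKM with the transgene and from 1.68 to 2.36 without it. All 4 had transgenic libraries that lay above the others. The libraries share genotypes and sets, so the correlations are a description.

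The 10 genes lie on the minus strand of build mm10 (GENCODE vM21). Asns spans chr6:7675169-7693254, Phgdh chr3:98313170-98339990, Mthfd2 chr6:83305691-83325908 and Slc3a2 chr19:8706882-8723369. An annotated gene on the opposite strand overlaps Psat1 (Gm3329), Psph (Cct6a), Shmt2 (Ndufa4l2) and Slc7a5 (Gm20388), and several predicted genes overlap Slc7a11. The sources used here do not say whether strand was used, so reads of such partners may not have been told apart. On the same strand, Gm43890 overlaps Mthfd2, and the processed pseudogene Gm15801 overlaps Aldh18a1. Strand would not separate reads of those. Phgdh has a named pseudogene, which could share reads with it. For Asns and Slc3a2 the annotation held neither an overlapping gene nor a named pseudogene.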

How the data were processed

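Expression was deposited by the authors as FPKM, with 1 value for each of 23356 genes in each of 8 libraries. The submitters' processing notes name TopHat2 2.0.9, Cufflinks 2.2.0 and build mm10. The sources used here do not give the role of each tool, the gene models, the use of strand or a filter. Lines of the table held an extra empty field behind the symbol, so its 8 headings were matched to the 8 values by position. A heading's stem gave the genotype. The stem read as HA-NRG1 type III/+ is an abbreviation, assigned because no other stem named that genotype. No label ties the endings 0 and 1 (the sets) to replicate numbers.

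FPKM holds no counts, so absolute depth is unknown. Steps between values up to 0.05 FPKM gave depths of 0.727 to 1.08 relative to WT of set 0.

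The log2(FPKM + 1) values of 12530 genes (mean over the libraries 1 FPKM or more) were fitted with limma 3.58.1 under R 4.3.3, as 4 group means with an eBayes trend and 4 residual degrees of freedom. P-values were adjusted by Benjamini-Hochberg over all of them, and the scripts were tested on simulated data. Deviations of libraries with the same ending correlated in all 6 pairs of genotypes (0.118 to 0.304). The sets were therefore taken to be paired, on the evidence of the values alone. Fits with the set as a replicate block, a term for sex (read from Xist and Ddx3y), both, a pseudocount of 0.1, no filter, median-ratio scaling, only the groups compared, and each library left out were alternatives. Exact permutation of 2 libraries against 2 was not used, since it cannot reach the threshold.

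The 10 genes and the lists were chosen with earlier results of these data known. All 10 genes are named. Of the 5 other lists, up to 4 genes with the smallest p for the transgene over both backgrounds or for Q215X/+ against WT are named, always with Atf4, Ddit3, Trib3 and Slc7a2, and so are 4 of the 5 genes most correlated with Asns. The fifth of these and 2 Schwann cell markers are not reported here. Cebpb, Ddit4 and the untested Chac1, Stc2, Gdf15 and Fgf21 were named after their values were seen.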

Additional observations from a re-analysis of the deposited data

Results flagged for a closer look

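Psat1 was singled out because its difference with the transgene ran in opposite directions on the 2 backgrounds, in set 0 and in set 1 alike. It was at 69.6 and 71.0 FPKM in the double and 74.2 and 89.5 in Q215X/+, while it was at 82.3 and 73.3 FPKM in HA-NRG1 type III/+ and 67.6 and 71.8 in WT. Within a set the double was 0.938 and 0.793 times Q215X/+, and HA-NRG1 type III/+ was 1.22 and 1.02 times WT. The transgene effect in Q215X/+ minus that in WT was -0.365 on the log2 scale. It did not pass the test, with a limma adjusted p of 1.00, and 0.965 with the set block. With the block and a term for sex the value was 0.07.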

How the results depend on the processing

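The count of the 9 genes called for the transgene over both backgrounds was 1 as reported, 0 with no filter, 0 with a term for sex, and 3 with the replicate block, also when it was joined to median-ratio scaling, a combination chosen after seeing the data. Without any 1 library it was 0 (lowest and highest), and with the block and 1 library left out, also chosen after seeing the data, it ran from 0 (without the double or the WT library of set 1) to 4 (without the Q215X/+ library of set 0). For HA-NRG1 type III/+ against WT, the double against Q215X/+ and the double against WT it was 0 as reported, 1 with the replicate block, with or without median-ratio scaling, and 0 with the block and any 1 library left out. Q215X/+ against WT and the interaction stayed at 0 in every setting run. Over all tested genes the calls for the transgene over both backgrounds numbered 124 as reported, 59 with no filter, 890 with the block, 22 with a term for sex, 304 with both and 11 to 42 without any 1 library. No scaling moved the median of all genes by over 0.1.

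Single-gene values were tallied for all 9 genes in Q215X/+ against WT, in both comparisons of the transgene and over both backgrounds, for Asns, Phgdh and Slc3a2 in the double against WT, and for Psat1 in the interaction. Of these outside the leave-one-out fits, 281 kept direction and side of the threshold, 17 changed sign, 10 became called and 2 lost the call; none of the values that changed sign was called, and the causes were not tested. For Q215X/+ against WT, a term for sex gave log2 differences of 0.0364 for Phgdh, -0.0786 for Mthfd2 and -0.46 for Aldh18a1, and with the replicate block as well 0.0623 for Phgdh, -0.0689 for Psat1, -0.28 for Psph, -0.29 for Mthfd2, 0.0475 for Slc7a5 and -0.25 for Aldh18a1. Other sign changes with a term for sex were -0.0179 for Slc7a5 (HA-NRG1 type III/+ against WT), 0.0116 for Shmt2 (the double against Q215X/+) and 0.0133 for Psat1 (both backgrounds). With sex and block they were 0.0815 for Psat1 and 0.22 for Psph (the double against Q215X/+), 0.0452 for Psat1 and 0.0118 for Psph (both backgrounds), and 0.0724 for Psat1 (interaction). Outside the tally, the uncalled interaction values of Mthfd2 (0.12) and Aldh18a1 (0.61) changed sign with a term for sex, and those of Psph (0.42), Mthfd2 (0.44), Slc7a5 (-0.12) and Aldh18a1 (0.30) with sex and block.

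Leaving out 1 library, with or without the block, spanned 0 for some genes. In Q215X/+ against WT the log2 differences ran from -0.0755 to 0.0302 for Phgdh, -0.24 to 0.26 for Psph, -0.000523 to 0.0512 for Shmt2, -0.27 to 0.31 for Mthfd2, -0.38 to 0.0190 for Slc7a5 and -0.16 to 0.26 for Aldh18a1. In HA-NRG1 type III/+ against WT they ran from -0.20 to 0.0907 for Psph and -0.17 to 0.24 for Slc7a5. In the double against Q215X/+ they ran from -0.32 to 0.18 for Psph, -0.0269 to 0.0104 for Shmt2 and -0.10 to 0.32 for Aldh18a1, and over both backgrounds from -0.10 to 0.0452 for Psat1 and -0.19 to 0.0632 for Psph. FPKM carry no counts, so the counting error of low genes such as Slc7a11 is unknown.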

Other observations

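Besides Slc7a11, some genes of the stress lists differed by set more than by genotype. Cebpb, a partner of ATF4 on the composite element, was at 6.85 to 8.64 FPKM in the 4 libraries of set 0 and at 2.17 to 2.76 in those of set 1, a ratio of means of 3.12. Ddit4, an inhibitor of mTORC1 induced by stress, was at 68.0 to 113 FPKM in set 0 and at 23.7 to 54.6 in set 1, a ratio of 2.44. Among all tested genes, 12.2% had all libraries of set 0 above all of set 1, and 20.1% had them all below. Cebpb and Ddit4 were chosen after their values were seen.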
